A study of Mus musculus with 12 samples.

Results

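The D cyclins (Ccnd1, Ccnd2 and Ccnd3), the kinases they activate (Cdk4 and Cdk6), the Cdk inhibitors Cdkn1a, Cdkn1b, Cdkn1c and Cdkn2c, and the retinoblastoma gene Rb1 were followed in the embryonic mouse pancreas with and without β-catenin. Members were taken by name: every probe set, the array's unit of measurement for a transcript, whose only gene symbol was 1 of these 10 genes. All 10 genes, of 18193 on the array, had at least 1. This gave 27 of the 45037 probe sets tested, with 1 to 7 for a gene, and 25 of the 27 share their gene with another, so the probe sets are not independent readings. RNA from single pancreata was hybridized to 12 arrays: each of the days E14.5 and E16.5 had 2 wildtype and 4 β-catenin KO pancreata. The embryos came from matings of mice that were Pdx1Cre/+; β-catenin flox/+, and the KO embryos were Pdx1Cre/+; β-catenin flox/flox. Wildtype embryos were given only as wildtype, so whether they carried Cre or a floxed allele is not stated. The series design names the earlier day E14.6, but E14.5 stands in the array names and is used here. Cre was driven by the Pdx1 promoter, which is active in the pancreatic epithelium, so the deletion is not aimed at the mesenchyme, vessels and blood cells of the same dissected organ. The study regards Cre expression as probably mosaic, so KO pancreata may hold epithelial cells that kept β-catenin.

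Cells pass from G1 into S phase when D cyclins, made in response to mitogens and Wnt signals, bind Cdk4 or Cdk6 and the active kinases phosphorylate the Rb1 protein, which then releases E2F transcription factors. The Cip/Kip proteins encoded by Cdkn1a (p21), Cdkn1b (p27) and Cdkn1c (p57) and the Ink4 protein encoded by Cdkn2c (p18) restrain these kinases. Ccnd1 is widely used as a Wnt target gene, in the pancreas Cdkn1c marks endocrine progenitors leaving the cycle, and Cdk4 is needed for the growth of the beta cell mass.

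Each value is a ratio of a pancreas to the mean of the 2 wildtype pancreata of its day, and wildtype averages 1. How abundant a transcript was, and how it developed between the days, cannot be read from such ratios. For the same reason the pancreatic markers could not be checked as levels. Ctnnb1, the β-catenin gene, was read by 3 probe sets whose KO mean ratios lay between 0.678 and 1.21 over both days, none past the limit (adjusted p from 0.152 to 0.92). Whether these probe sets lie in the deleted exons was not analysed here, so they do not check the deletion. Log2 ratios spread most widely on KO_540G (interquartile range 0.41, against 0.2 to 0.28 on the other E14.5 KO arrays). They spread least on the wildtype arrays (0.11 and 0.15). Each wildtype array is part of the mean that divides it, which narrows its spread, so this is no comparison with the KO arrays. The acinar marker list stood at a median log2 ratio of -1.26 to 0.49 in the KO pancreata at E14.5 and of -3.15 to -0.99 at E16.5. On the later day 6 of its 14 measured genes fell (limma, adjusted p under 0.05), against 2.62% of all probe sets called in either direction. In RNA of a whole organ, fewer cells of a type and less RNA per cell cannot be told apart.

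None of the 27 probe sets differed between KO and wildtype after adjustment over all probe sets (limma, Benjamini-Hochberg, adjusted p limit 0.05) on either day. Over all probe sets, 0.0111% were called on the earlier day and 2.62% on the later. An unadjusted p under 0.05 was reached by 6 of the 27 at E14.5, against 6.86% of all probe sets, and by 7 at E16.5, against 16.6%. In the test of whether the KO difference changed between the days, 0 of 27 passed, against 0.349% of all, and 3 had an unadjusted p under 0.05, against 10.4%. All 4 KO pancreata lay below both wildtype pancreata on 6 of the 27 at E14.5, where 8.06% of all probe sets did, and above both on 2, where 8.17% did. At E16.5 they lay below both on 4 of 27 (11.1% of all) and above both on 3 (14.5% of all). The fold criteria in the study's methods set an upper and a lower limit on the ratio, to be passed in at least 3 of 4 KO pancreata at E14.5 and in all 4 at E16.5. They were met by 0 of the 27 on each day, against 3.58% and 1.66% of all probe sets. The values below are therefore given as ratios with their errors, not as changes.

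**Figure D1:**
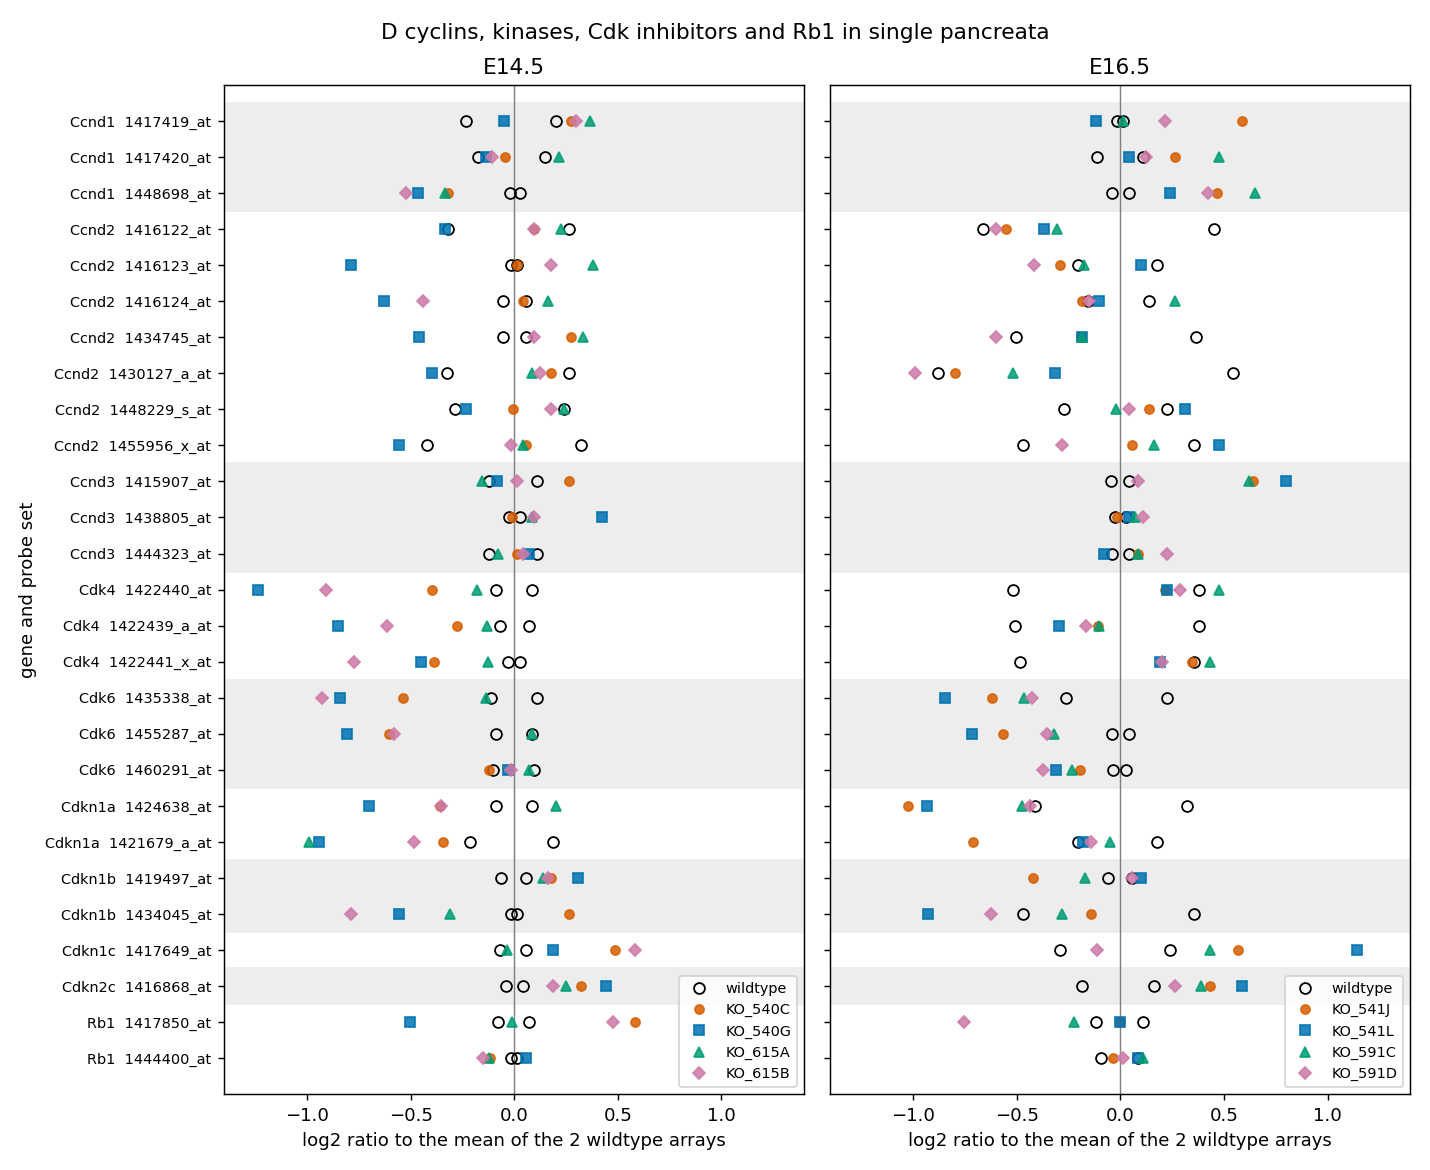
Log2 ratio of each pancreas to the mean of the 2 wildtype pancreata of its day (x axis) for the 27 probe sets (y axis), with E14.5 left and E16.5 right; open circles are wildtype pancreata and filled symbols single KO pancreata. Cdk4 lies left of both wildtype pancreata at E14.5 on its 3 probe sets, Cdk6 does so at E16.5, and Cdkn2c lies to the right at both days.

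Among the D cyclins, 0 of 13 probe sets passed the adjusted limit on either day. By the probe set chosen for each gene by its name, the 3 genes had a median log2 fold change of 0.05 on the earlier day and 0.17 on the later, against 0.019 and 0.027 over all probe sets. Ccnd1, the D cyclin most often named as a Wnt target, had the smallest p of all members at both days, on 1 of its 3 probe sets. On 1448698_at the E14.5 ratios were 1.02 and 0.985 in wildtype and 0.801, 0.726, 0.794 and 0.697 in KO, with every KO pancreas below both wildtype. At E16.5 they were 1.03 and 0.971 in wildtype and 1.38, 1.18, 1.57 and 1.34 in KO, with every KO pancreas above both. The log2 fold change, KO minus wildtype, was -0.41 (SE 0.11, adjusted p = 0.522) at E14.5 and 0.45 (SE 0.11, adjusted p = 0.0637) at E16.5. The KO difference at E16.5 minus that at E14.5 was 0.86 (SE 0.16, adjusted p = 0.0546). Leaving out KO_541L or KO_591D brought that adjusted p to 0.0445 and 0.0481, and over all alternatives it ran from 0.0309 to 0.378, the highest with quantile normalization. KO_541L had the lowest E16.5 KO ratio, so leaving it out had to raise the difference.

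The other Ccnd1 probe sets did not show that pattern. On 1417419_at the E14.5 ratios were 0.851 and 1.15 in wildtype and 1.21, 0.968, 1.29 and 1.23 in KO, and the E16.5 ratios 0.988 and 1.01 in wildtype and 1.5, 0.921, 1.01 and 1.16 in KO. The groups overlapped at both days, with log2 fold changes of 0.24 (95% interval -0.18 to 0.65) and 0.17 (-0.24 to 0.59). On 1417420_at the KO mean ratio was 0.991 ± 0.112 (SD, n = 4) on the earlier day and 1.18 ± 0.156 on the later, again overlapping wildtype. With 3 probe sets disagreeing in sign at E14.5, the direction of Ccnd1 on that day depends on which is read. The 3 genes whose log2 ratios ran closest to Ccnd1 1448698_at over the 12 arrays were Frmpd1 (Pearson r = 0.98), Zc3h8 (0.98) and Psmd14 (0.97); the arrays share the division by the day's wildtype mean, and the values are a description.

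Ccnd2, the D cyclin prominent in beta cell growth, was read by 7 probe sets, and KO overlapped wildtype on each of them at both days. Its log2 fold changes ran from -0.21 to 0.07 at E14.5 and from -0.49 to 0.16 at E16.5. At E16.5 they were negative on 1416122_at (-0.35), 1416123_at (-0.18), 1416124_at (-0.04), 1434745_at (-0.22) and 1430127_a_at (-0.49) and positive on 1448229_s_at (0.14) and 1455956_x_at (0.16). On 1416122_at the E16.5 ratios were 1.37 and 0.632 in wildtype and 0.683, 0.775, 0.809 and 0.659 in KO, so the KO pancreata sat together between wildtype pancreata that were far apart. The wildtype pancreata of E16.5 differed by 1.42 on the log2 scale on 1430127_a_at, against a median of 0.15 over all probe sets. On 1416122_at the 95% interval of the E16.5 log2 fold change ran from -0.94 to 0.23.

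Ccnd3, the third D cyclin, was close to wildtype at E14.5 on 1415907_at (KO mean ratio 1.01 ± 0.132, SD, n = 4). At E16.5 the same probe set read 1.03 and 0.968 in wildtype and 1.56, 1.74, 1.54 and 1.06 in KO. Of the KO pancreata, 3 stood clearly above wildtype and KO_591D only just above. The log2 fold change was 0.54 (SE 0.18, adjusted p = 0.146). Without KO_591D it was 0.69 (adjusted p = 0.0146), and over all alternatives the adjusted p ran from 0.0146 to 0.896. KO_591D had the lowest KO ratio here, so leaving it out had to raise the value. Without it 6.35% of all probe sets were called, against 2.62% with it. The other Ccnd3 probe sets, 1438805_at and 1444323_at, had KO mean ratios of 1.04 and 1.06 at E16.5 and overlapped wildtype. At E16.5 the mesenchyme marker list, 9 genes, also stood highest in KO_541L and KO_541J (median log2 ratios 1.2 and 0.59, against 0.11 in KO_591C and 0.27 in KO_591D and -0.05 and 0.04 in wildtype). Of its genes, 2 rose past the adjusted limit, against 2.62% of all probe sets called in either direction. The endocrine list (0.1, 1.03, 0.72 and -0.06 in KO_541J, KO_541L, KO_591C and KO_591D), the endothelial list (0.15, 0.57, 0.3 and 0.01) and the leukocyte list (0.39, 0.48, 0.09 and 0.07) were also highest in KO_541L and lowest in KO_591D among the KO pancreata. The part of these lists in the Ccnd3 values was not tested.

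**Figure D2:**
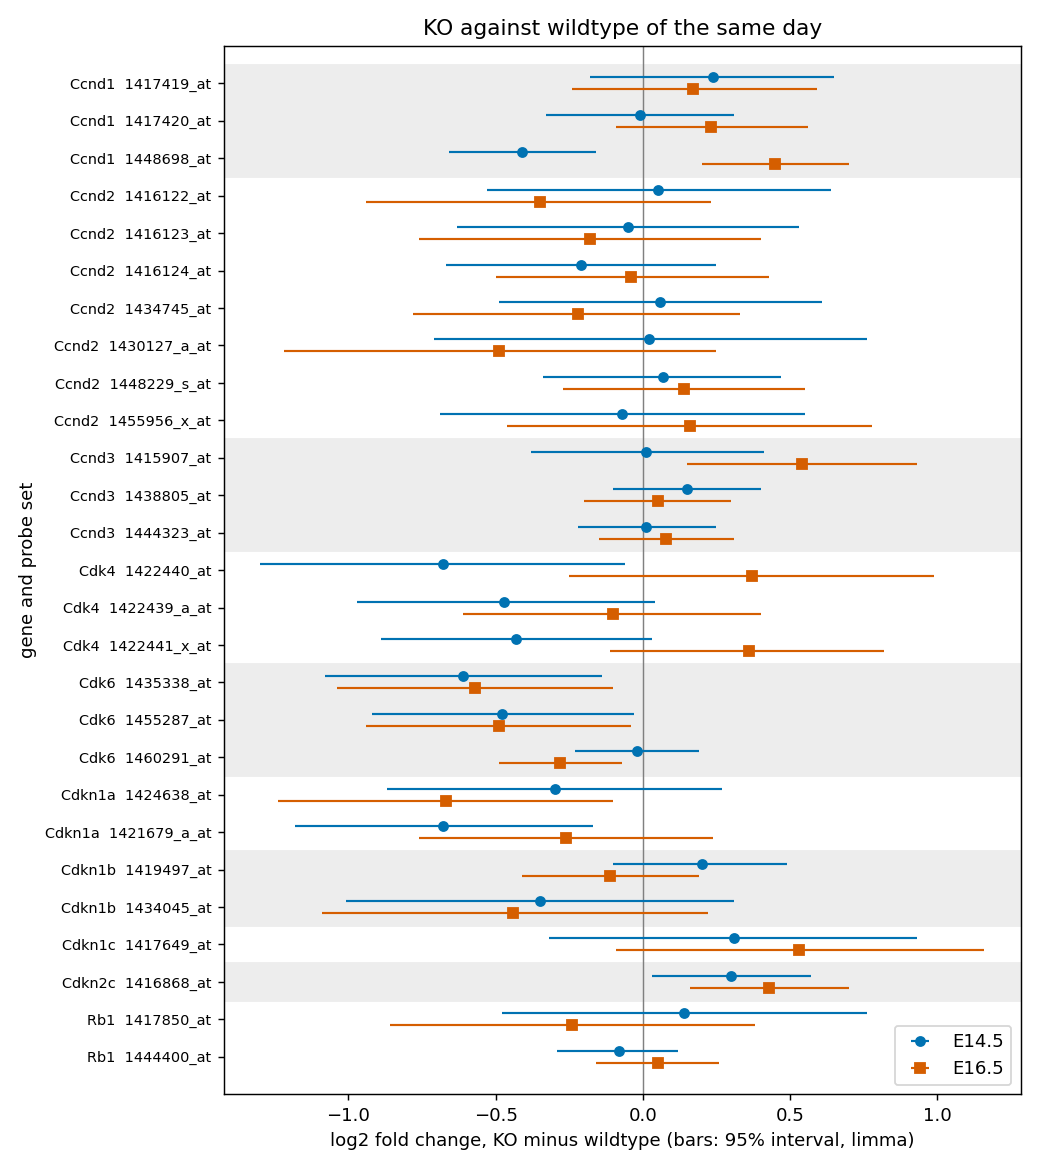
Log2 fold change, KO minus wildtype of the same day (x axis), for the 27 probe sets (y axis), with blue circles for E14.5, orange squares for E16.5 and bars for the 95% interval from limma. The intervals of Ccnd1 1448698_at lie on opposite sides of 0 at the 2 days (-0.41 and 0.45), while those of Cdk6 1435338_at lie on the same side (-0.61 and -0.57).

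At E14.5 the KO mean ratio was under 1 on all 6 probe sets of the kinases. For Cdk4, the E14.5 ratios on 1422440_at were 1.06 and 0.942 in wildtype and 0.759, 0.424, 0.883 and 0.533 in KO (KO_540C, KO_540G, KO_615A, KO_615B). All 4 KO pancreata lay below both wildtype, KO_540G lowest and KO_615A nearest to wildtype. The KO mean ratio was 0.65 ± 0.209 (SD, n = 4), with a log2 fold change of -0.68 (SE 0.28, adjusted p = 0.688). Without KO_540G, the array of widest spread, the log2 fold change was -0.49, and without KO_615A it was -0.85. The other Cdk4 probe sets, 1422439_a_at and 1422441_x_at, had KO mean ratios of 0.737 ± 0.163 and 0.75 ± 0.136 and also placed every KO pancreas below both wildtype. The 3 probe sets read 1 gene and count as 1 observation.

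At E16.5 the Cdk4 ratios on 1422440_at were 1.3 and 0.698 in wildtype and 1.16, 1.17, 1.39 and 1.22 in KO. KO overlapped wildtype, whose 2 pancreata differed by 0.9 on the log2 scale, and the log2 fold change was 0.37 (95% interval -0.25 to 0.99). The KO difference at E16.5 minus that at E14.5 was 1.05 (SE 0.4, adjusted p = 0.364) on 1422440_at and 0.79 (SE 0.3, adjusted p = 0.363) on 1422441_x_at. The third probe set, 1422439_a_at, had a KO mean ratio of 0.891 ± 0.0544 at E16.5, below 1 where the others were above it. Without WT_628G these differences were 0.6 and 0.37, and without WT_622A they were 1.5 and 1.21.

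For Cdk6 on 1435338_at the E14.5 ratios were 0.925 and 1.08 in wildtype and 0.689, 0.559, 0.909 and 0.526 in KO, and every KO pancreas lay below both wildtype, KO_615A only just. The E16.5 ratios were 1.17 and 0.834 in wildtype and 0.651, 0.556, 0.724 and 0.745 in KO, again with no overlap. The log2 fold changes were -0.61 (SE 0.21, adjusted p = 0.632) and -0.57 (adjusted p = 0.198). On 1455287_at the KO mean ratio was 0.739 ± 0.216 (SD, n = 4) at E14.5, where KO_615A overlapped wildtype, and 0.717 ± 0.091 at E16.5, where none did. On 1460291_at it was 0.983 ± 0.052 at E14.5, overlapping wildtype, and 0.826 ± 0.0452 at E16.5, below both wildtype in all 4 KO pancreata (log2 fold change -0.28, SE 0.1, adjusted p = 0.16). Cdk6 thus stood below wildtype at E16.5 on its 3 probe sets and at E14.5 on 1 of them without overlap.

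The sequences just upstream of both kinase genes and of Cdkn2c are shown because these genes gave the same direction on all probe sets of a day without overlap. A promoter window was found for 6 of the 10 genes, and those printed are the 250 bases before the gene start, 5′ to 3′ on the gene's strand, from RefSeq on GRCm38.p6: Cdk4 at chr10:127063285-127063534 (plus strand), Cdk6 at chr5:3343643-3343892 (plus) and Cdkn2c at chr4:109666757-109667006 (minus). Capitals mark CACGTG, the E-box letters that Myc family proteins are known to bind; the letters read the same on both strands.
Cdk4: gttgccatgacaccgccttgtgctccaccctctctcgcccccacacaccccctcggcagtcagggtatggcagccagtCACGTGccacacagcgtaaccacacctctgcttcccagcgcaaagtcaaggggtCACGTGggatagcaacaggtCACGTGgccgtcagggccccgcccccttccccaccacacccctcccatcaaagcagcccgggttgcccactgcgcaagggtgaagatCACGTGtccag
Cdk6: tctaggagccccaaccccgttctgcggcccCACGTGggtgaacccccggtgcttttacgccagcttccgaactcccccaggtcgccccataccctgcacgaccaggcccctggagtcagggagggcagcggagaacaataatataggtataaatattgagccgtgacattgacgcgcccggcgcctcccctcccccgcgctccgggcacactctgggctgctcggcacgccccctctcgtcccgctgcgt
Cdkn2c: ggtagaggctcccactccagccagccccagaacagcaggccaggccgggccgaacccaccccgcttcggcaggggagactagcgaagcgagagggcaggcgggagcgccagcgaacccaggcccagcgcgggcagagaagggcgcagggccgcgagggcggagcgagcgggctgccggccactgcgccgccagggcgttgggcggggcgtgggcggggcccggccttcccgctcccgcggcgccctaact
The Cdk4 window holds 4 copies of CACGTG, starting 172, 118, 98 and 11 bases before the gene start, and the Cdk6 window holds 1, starting 220 bases before it. The Cdkn2c window printed holds none, nor does its other window, at chr4:109665373-109665622. Of the 9 member windows only those of Cdk4 and Cdk6 hold the letters. Of 32851 windows of this length, 6.02% hold the letters and 20 windows, 0.0609%, hold 3 or more copies. On both strands, the Tcf/Lef letters (CTTTGAA, or else CTTTGAT, or else CTTTGTA, or else CTTTGTT) match 1 time in the Cdk4 window and in no other of the 9 member windows, against 14.8% of all windows. The E2F letters (TTTCCCGC, or else TTTGGCGC, or else TTTCGCGC, or else TTTGCCGC) occur in 0 of the 9, against 1.86% of all. These are matches of letters, not measured binding.

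**Figure D3:**
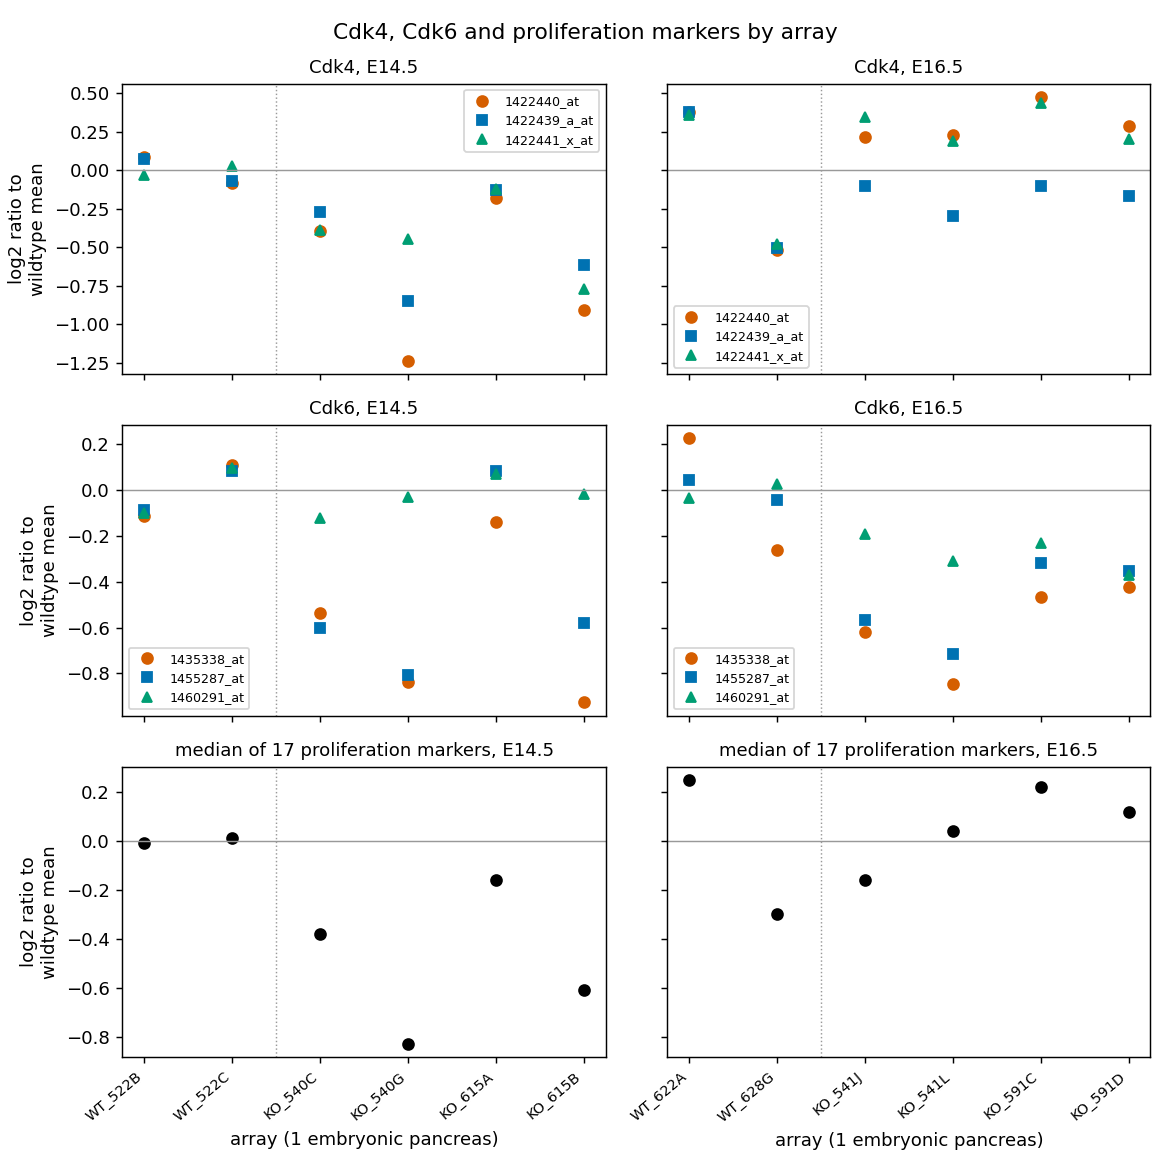
Log2 ratio to the wildtype mean of the day (y axis) in each pancreas (x axis, wildtype left of the dotted line) for the Cdk4 probe sets (top), the Cdk6 probe sets (middle) and the median of 17 proliferation markers (bottom). At E14.5 the marker median is lowest in KO_540G (-0.83) and nearest to wildtype in KO_615A (-0.16), as is Cdk4 1422440_at, while Cdk4 1422441_x_at and Cdk6 1435338_at are lowest in KO_615B.

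Genes of S phase and mitosis stood low in the same E14.5 pancreata. Of 17 measured proliferation markers, 16 had a log2 fold change below 0 at E14.5, and the other, Top2a, had a KO mean ratio of 0.999. The median of their log2 fold changes was -0.49, against 0.019 over all probe sets. Of the 17, 0 passed the adjusted limit (0.0111% of all probe sets did). By limma, 9 had an unadjusted p under 0.05, against 6.86% of all probe sets. Taken per pancreas, their median log2 ratios were lowest in KO_540G (-0.83) and KO_615B (-0.61), then KO_540C (-0.38), and highest in KO_615A (-0.16), against -0.01 and 0.01 in wildtype. The KO pancreata take the same order in Cdk4 1422440_at and 1422439_a_at. Cdk4 1422441_x_at and Cdk6 1435338_at were instead lowest in KO_615B (ratios 0.586 and 0.526, against 0.733 and 0.559 in KO_540G), and Cdk6 1455287_at and 1460291_at also took other orders. At E16.5 the medians ran from -0.16 to 0.22 in KO and the wildtype pancreata were apart, at 0.25 in WT_622A and -0.3 in WT_628G, the way Cdk4 also split them. The acinar list at E14.5 had median log2 ratios of -0.44, -0.35, 0.49 and -1.26 in KO_540C, KO_540G, KO_615A and KO_615B. Like Cdk4 1422441_x_at and Cdk6 1435338_at, it was lowest in KO_615B and highest in KO_615A. The part of cell cycle activity, or of acinar cells, in the kinase values was not tested.

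The Cdk inhibitors split by gene. Cdkn2c, which binds Cdk4 and Cdk6 directly, was the only inhibitor of the 4 whose KO pancreata all lay above both wildtype pancreata at both days. Its E14.5 ratios on 1416868_at were 0.974 and 1.03 in wildtype and 1.25, 1.36, 1.19 and 1.14 in KO. Its E16.5 ratios were 1.12 and 0.88 in wildtype and 1.35, 1.5, 1.31 and 1.2 in KO. Every KO pancreas lay above both wildtype at each day, and the log2 fold changes were 0.3 (SE 0.12, adjusted p = 0.677) and 0.43 (SE 0.12, adjusted p = 0.0949). Without KO_591D the E16.5 value was 0.48 (adjusted p = 0.0457), and over all alternatives its adjusted p ran from 0.0413 to 0.788. KO_591D had the lowest E16.5 KO ratio here too, and without it 6.35% of all probe sets were called.

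Cdkn1a, the p53-responsive inhibitor p21, had a KO mean ratio under 1 on both probe sets at both days, and each probe set separated KO from wildtype without overlap on 1 day. On 1424638_at the E16.5 ratios were 0.752 and 1.25 in wildtype and 0.491, 0.524, 0.719 and 0.739 in KO, with all KO pancreata below both wildtype (log2 fold change -0.67, SE 0.26, adjusted p = 0.212). At E14.5 the same probe set overlapped, with KO ratios of 0.78, 0.616, 1.15 and 0.784. On 1421679_a_at it was E14.5 that separated, with 0.862 and 1.14 in wildtype and 0.788, 0.521, 0.504 and 0.716 in KO (log2 fold change -0.68, SE 0.23, adjusted p = 0.616). Its E16.5 KO mean ratio of 0.842 ± 0.158 (SD, n = 4) overlapped wildtype.

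Cdkn1b, the inhibitor p27, gave opposite directions on its 2 probe sets at E14.5. On 1419497_at the ratios were 0.956 and 1.04 in wildtype and 1.13, 1.24, 1.1 and 1.12 in KO, above both wildtype in every case but with a log2 fold change of only 0.2 (SE 0.14, adjusted p = 0.858). On 1434045_at the KO ratios were 1.2, 0.68, 0.806 and 0.58, with a KO mean of 0.816 ± 0.27 (SD, n = 4). At E16.5 both overlapped wildtype, with KO mean ratios of 0.935 ± 0.148 and 0.726 ± 0.171.

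Cdkn1c, the inhibitor p57, varied most among the KO pancreata of E16.5. On its 1 probe set, 1417649_at, the E16.5 ratios were 1.18 and 0.816 in wildtype and 1.48, 2.21, 1.35 and 0.925 in KO (KO_541J, KO_541L, KO_591C, KO_591D). The value in KO_541L was the highest ratio of any member on any array, KO_591D lay between the wildtype pancreata, and the log2 fold change was 0.53 (SE 0.29, adjusted p = 0.398). The E14.5 ratios were 0.955 and 1.04 in wildtype and 1.4, 1.14, 0.976 and 1.5 in KO, where KO_615A overlapped wildtype. The endocrine marker list, 14 measured genes, had E16.5 median log2 ratios of 0.1, 1.03, 0.72 and -0.06 in the same KO order, and the mesenchyme list 0.59, 1.2, 0.11 and 0.27; their part in the Cdkn1c values was not tested.

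Rb1, the pocket protein that the kinases inactivate, overlapped wildtype on both probe sets at both days. On 1417850_at the E14.5 ratios were 0.949 and 1.05 in wildtype and 1.5, 0.706, 0.992 and 1.39 in KO, on both sides of wildtype. At E16.5 they were 0.923 and 1.08 in wildtype and 1, 1, 0.857 and 0.593 in KO, with KO_591D lowest. The log2 fold changes were 0.14 (95% interval -0.48 to 0.76) and -0.24 (-0.86 to 0.38). The other probe set, 1444400_at, had KO mean ratios of 0.945 ± 0.0628 and 1.03 ± 0.048 (SD, n = 4).

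Among 25 other genes of the G1 to S transition, all of them measured, 1 passed the adjusted limit. It did so at E16.5, where 2.62% of all probe sets did, so 1 of 25 is close to the share of all. Cdc25a, the phosphatase that removes inhibitory phosphates from Cdks, fell at E16.5 to a KO mean ratio of 0.657 ± 0.0642 (SD, n = 4; log2 fold change -0.61, SE 0.14, adjusted p = 0.0469). That call was close to the limit: on the log2 scale it was lost in 13 of 21 alternatives, with log2 fold changes from -0.66 to -0.46 and adjusted p from 0.0287 to 0.285. The arrays whose omission ended it were WT_522B, WT_522C, KO_615B, WT_622A, WT_628G, KO_541J, KO_541L and KO_591C (adjusted p 0.0576 without the last and 0.194 without WT_628G). Without 1 wildtype array its day keeps a lone wildtype array, whose spread is then taken from the other groups. At E14.5, 17 of the 25 had a KO mean below wildtype and 8 above, with a median log2 fold change of -0.14 against 0.019 over all probe sets. On that day 0 were called and 5 were lower at an unadjusted p under 0.05 by limma. Of all probe sets 6.86% had such a p in either direction. The 3 smallest p values were those of Rbl1, the Rb relative p107 (KO mean ratio 0.536 ± 0.152, adjusted p = 0.475), Tfdp2, an E2F partner (0.762 ± 0.0301, adjusted p = 0.607), and, tied, Cks1b, a Cdk subunit (0.708 ± 0.119), and Cdk7, the kinase that activates Cdks (0.789 ± 0.0991; both adjusted p = 0.629). At E16.5, 20 were above wildtype and 5 below, with a median of 0.08. For the 10 members by their chosen probe sets the counts were 7 above and 3 below at E14.5, with a median of 0.09, and 5 and 5 at E16.5, with a median of 0.03.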

How the data were processed

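RNA of 12 single pancreata was measured on Affymetrix MOE430 2.0 arrays. According to the labels and methods, the authors amplified it in 2 rounds, summarized arrays with RMA, and divided each signal by the wildtype mean of its day. The deposited values are therefore linear ratios; the wildtype pair of a day adds up to 2 (largest deviation 3e-07). Raw arrays were not used here.

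Of 45101 probe sets, 64 array controls were set aside. Of the 45037 tested, 34945 carried 1 symbol (18193 genes), 932 several and 9160 none, by the platform annotation. A model of 4 group means was fitted to log2 ratios (limma 3.58.1, R 4.3.3, 8 residual degrees of freedom). KO was compared with wildtype at each day, and the 2 differences with each other. P values were two-sided and adjusted by Benjamini and Hochberg over all probe sets, with a limit of 0.05. They measure the spread between single embryos, and 2 wildtype arrays a day limit the precision. Arrays that share the number in their names were treated as independent. At E14.5 the wildtype arrays are 522B and 522C and the KO arrays 540C, 540G, 615A and 615B. At E16.5 they are 622A and 628G against 541J, 541L, 591C and 591D. No number occurs in both genotypes, so genotype and number cannot be told apart. The array names do not say what the number stands for. The fit was tested on simulated data. Members and gene lists were chosen with earlier results of these data known.

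All member probe sets are named. Of the other G1/S genes, those past the limit or else the 3 smallest p values of a day are named. A gene in a list is read by 1 probe set chosen by its name: plain _at names came before the suffixes _a, _f and _g, those before _s and _x, and low numbers before high. Marker lists for duct, endothelial, leukocyte, neuron and glia, and erythroid cells were also read. Their KO median log2 ratios ran at E14.5 from -0.26 to -0.04, -0.06 to 0.33, 0.16 to 0.43, 0.16 to 0.42 and -0.53 to -0.05, and at E16.5 from -0.47 to -0.28, 0.01 to 0.57, 0.07 to 0.48, 0.22 to 0.43 and 0.03 to 0.24. The alternatives were quantile normalization, median centring, a trended and robust variance, each day alone, array weights, the number in the array name as a random block, linear ratios, a floor of 0.1, leaving out _x_at and _s_at probe sets, a t-test of equal variance, the average of all probe sets of a gene, and leaving out each array. The methods name such a t-test but applied it after a filter by fold, and here it covered all probe sets of a day.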

Additional observations from a re-analysis of the deposited data

Results flagged for a closer look

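On 4 of the 54 sets of 4 KO values 1 pancreas stood apart from the other 3 by Dixon's criterion, where chance gives about 1 in 20, or 2.7. The criterion is its gap to the nearest value over the range of the 4, both taken on log2 ratios. The ratios printed here are linear, so the gap cannot be worked out from them directly. KO_540G was apart at E14.5 on Ccnd2 1430127_a_at (ratio 0.759 against 1.06 to 1.13, gap over range 0.839), on Ccnd2 1455956_x_at (0.681 against 0.988 to 1.04, gap 0.875) and on Rb1 1444400_at (1.04 against 0.901 to 0.922, gap 0.842). KO_591D was apart at E16.5 on Ccnd2 1434745_at (0.66 against 0.878 to 0.88, gap 0.993).

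On 3 probe sets all 4 KO pancreata lay below the wildtype mean at E14.5 and all 4 above it at E16.5. The share of all probe sets that did so was not counted. Of the 3, only Ccnd1 1448698_at separated KO from both wildtype pancreata at each day. The Cdk4 probe sets overlapped wildtype at E16.5. The log2 differences, E16.5 minus E14.5, were 0.86 for Ccnd1 1448698_at (adjusted p = 0.0546), 1.05 for Cdk4 1422440_at (adjusted p = 0.364) and 0.79 for Cdk4 1422441_x_at (adjusted p = 0.363), by limma. Without WT_628G the Cdk4 values were 0.6 and 0.37, and without WT_622A 1.5 and 1.21.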

How the results depend on the processing

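No member passed the adjusted limit at E14.5 in any of 22 alternatives. The trended and robust variance and the t-test each called 0 of all probe sets at E14.5, so 0 members was fixed there. The t-test also called 0 of all at E16.5. It was run and adjusted here over all probe sets, whereas the study tested only those first filtered by fold. Its 0 calls are therefore not the study's own result. At E16.5, 2 of 27 passed with array weights, where 5.28% of all probe sets did, and 2 without KO_591D, where 6.35% did. In both cases these were Ccnd3 1415907_at (adjusted p 0.0437 and 0.0146) and Cdkn2c (0.0413 and 0.0457). In the other alternatives that kept 2 wildtype arrays a day 0 passed. For the difference between days, 1 passed with array weights (Ccnd1 1448698_at, adjusted p = 0.0309), where 1.29% of all probe sets did. The same probe set passed with the number in the array name as a random block (0.0388), where 0.429% of all did. In that fit the estimated correlation of arrays sharing a number was -0.09. It also passed without KO_541L, where 0.195% of all did, or without KO_591D, where 0.906% did. Leaving out 1 KO array gave 0 to 1. The cause was not tested. Without 1 wildtype array its day has a lone wildtype array, which is assumed to vary like the other groups. The count at an unadjusted p under 0.05 moved at E14.5 from 6 to 2 with quantile normalization, to 3 by the t-test and to 3 without KO_540G. At E16.5 it moved from 7 to 4 without KO_541L or by that t-test, and to 1 with quantile normalization. For the difference it moved from 3 to 1 with quantile normalization. The 16 probe set results with an unadjusted p under 0.05 kept their direction. They were picked by that p in the same arrays, so this is no separate check. Among the other results the sign turned in 29 of 459 refits at E14.5, 12 of 437 at E16.5 and 35 of 478 for the difference. With all probe sets of a gene averaged, the E14.5 log2 fold change went from 0.24 to -0.06 for Ccnd1, from 0.05 to -0.02 for Ccnd2 and from 0.2 to -0.08 for Cdkn1b, and the E16.5 one from 0.54 to 0.22 for Ccnd3, from -0.35 to -0.14 for Ccnd2 and from 0.37 to 0.21 for Cdk4. Leaving out WT_622A or WT_628G moved the E16.5 log2 fold change to -0.33 or -0.81 for Cdk6 1435338_at, to -1.04 or -0.31 for Cdkn1a 1424638_at and to 0.6 or 0.25 for Cdkn2c. No paired analysis was possible because the names of KO and wildtype arrays share no replicate number.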
